A study of Saccharomyces cerevisiae with 12 samples.

Results

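The comparison described here is that of budding yeast (Saccharomyces cerevisiae) carrying the RPD3 mutant labelled Rpd3-2SA with WT yeast, both growing in sucrose. It rests on 6 of the 12 RNA sequencing libraries of the series, 3 of each genotype, chosen by genotype and sugar in the sample titles, and on all 6085 features with enough counts to test. All cultures carry the strain label BY4741, a haploid laboratory strain of the S288C background, and were taken in mid-log growth. The other 6 libraries are WT and Rpd3-2SA in YPD, a rich medium with glucose, and are used beside the sucrose values. The labels give no wording for the 2SA change itself, for how the mutant strain was built, or for what the sucrose medium held besides sucrose. The series title concerns phosphorylation of Rpd3.

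Rpd3 is a lysine deacetylase that works with Sin3 in a large and a small complex, Rpd3L and Rpd3S. It removes acetyl groups from histones, and the DNA-binding repressor Ume6 brings Rpd3L to promoters with a URS1 site. Yeast without RPD3 is also known for stronger silencing near chromosome ends. Sucrose is split outside the cell by invertase, the product of SUC2, and the resulting glucose and fructose enter through hexose transporters and are phosphorylated by hexokinases. SUC2 and many genes for other carbon sources are held down by glucose through the repressor Mig1 and switched on through the Snf1 kinase.

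The sucrose libraries held 20775911 to 25360037 counts. Libraries with the same number, 1 of WT and 1 of 2SA, deviated from their group means together, and the libraries numbered 2 stood apart from the others in both genotypes. Ribosomal protein genes took 9.68%, 4.09% and 11.3% of all counts in WT libraries 1, 2 and 3, and 10.3%, 5.85% and 13.4% in 2SA libraries 1, 2 and 3. Stress genes driven by Msn2 and Msn4 took 1.33%, 3.19% and 0.715% in WT and 0.904%, 2.09% and 0.588% in 2SA. Both lists thus separated the numbers more than the genotypes, and the part of this split in the results was not tested. RPD3 itself (YNL330C, chromosome XIV, 18001 to 19302) was at 129, 133 and 103 CPM (the CPM unit scales counts to a common library size and composition) in WT and at 122, 135 and 104 in 2SA, with a log2 fold change of -0.02 ± 0.08. Its level checks no label, since the mutant still has the gene. The 7 a-specific genes, which mark the mating type of BY4741, took 0.0278% to 0.0632% of counts over the 6 libraries. The 4 alpha-specific genes took 0.005375% to 0.00777%, and 2 of them had enough counts to test. Of these, SAG1 was at 43.8 to 65.7 CPM. BY4741 is known to lack MET17, LEU2 and URA3. MET17 and LEU2 had 0 counts in the 6 sucrose libraries, while URA3 was at 233 to 396 CPM in both genotypes. The strain label alone does not account for the URA3 counts, and their cause was not tested. HIS3, another marker gene of the strain background, was at 29.8 to 65.4 CPM and overlaps another annotated feature.

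With each same-numbered pair as a block, 98 features were lower (1.61%) and 14 higher (0.23%) in 2SA in sucrose, together 1.84% of the 6085. Calls needed a change of more than 1.5-fold together with p under 0.05 after Benjamini-Hochberg adjustment in edgeR's quasi-likelihood test, as in the submitters' design text. The lower features held genes of sugar use, stress and phosphate uptake and 49 features within 30 kb of a chromosome end, and the higher ones held the vitamin B6 genes SNZ1 and SNO1, urea genes and retrotransposon frames. All 98 and all 14 moved the same way in the 3 pairs, as did 42.9% of all tested features. The ranges of WT and 2SA did not overlap for 53 of the 98 and 12 of the 14, against 6.26% of all tested features. Both counts are favoured by the choice of the features on these same values. Without the block, 3 features were lower (0.0493%) and 1 higher (0.0164%), 4 in all (0.0657%), and the common dispersion was 0.0719 in place of 0.0134. The 6 sucrose libraries fitted alone with the block gave 66 lower (1.1%) and 9 higher (0.149%), 1.24% together. DESeq2 with the block gave 143 lower (2.35%) and 25 higher (0.411%), 2.76% together, with 107 of the calls above among them. Without the libraries numbered 2 and with the block, 41 were lower (0.672%) and 6 higher (0.0984%), 0.77% together, and 36 of the 98 and 6 of the 14 were among them. Whichever number was left out, 28 of the 98 and 5 of the 14 kept their call. In every such case 37 of the 98 and 5 of the 14 lost it. With the block, p-values measure how far the ratio of 2SA to WT varied from pair to pair. Without it they measure the spread between the libraries of a group. In RNA from whole cultures, fewer cells using a gene and less RNA per cell cannot be told apart.

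**Figure D1:**
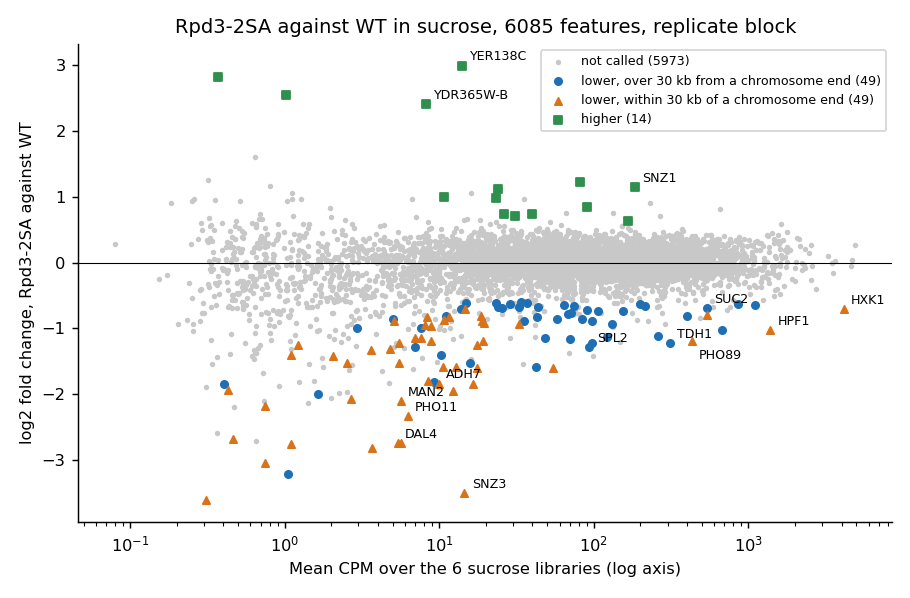
Log2 fold change of Rpd3-2SA against WT in sucrose (vertical axis, replicate block) against the mean CPM over the 6 sucrose libraries (log axis), 1 point per tested feature. The 49 lower features near chromosome ends (triangles) lie mostly at low CPM, and the 49 farther from an end (circles) spread to higher CPM, with 14 higher features (squares).

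Of the genes that bring sucrose and its hexoses into metabolism, SUC2 and HXK1 were called lower in 2SA, and the other hexose kinases and the abundant hexose transporters were not called. SUC2 (YIL162W, chromosome IX, 37385 to 38983), the invertase gene, was at 291, 1068 and 672 CPM in WT libraries 1, 2 and 3 and at 202, 560 and 439 CPM in 2SA. Each 2SA library was below the WT library of its number, while the groups overlapped, since the numbers differed more than the genotypes. The log2 fold change was -0.69 ± 0.11 (edgeR adjusted p = 0.0181). In glucose, where SUC2 is repressed, WT was at 22.1 to 58.7 CPM and 2SA at 25.7 to 79.0, a log2 fold change of 0.20 ± 0.12 that did not pass (edgeR adjusted p = 0.618). The SUC2 call held without the libraries numbered 1 and was lost without those numbered 2 or 3 (edgeR adjusted p = 0.0978 and 0.0646). HXK1, the hexokinase gene induced away from glucose, was at 3011, 9257 and 3327 CPM in WT and at 2157, 5053 and 1963 in 2SA (log2 -0.71 ± 0.13, edgeR adjusted p = 0.0308). The fall appeared in every pair, and WT library 2 was far above the others. HXK1 overlaps another annotated feature, and its call was lost without the libraries of any 1 number (edgeR adjusted p 0.0553 to 0.123). The other hexose kinases HXK2, GLK1 and EMI2 had log2 fold changes of -0.28, -0.42 and -0.44 and did not pass.

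Of 12 tested genes for sucrose and alpha-glucoside use, 4 were lower, none was higher and 11 lay below 0, with a median log2 fold change of -0.56 beside 0.0039 over all tested features. Besides SUC2 these were the maltose and glucoside permease genes MPH2 (log2 -1.40) and MPH3 (-1.52) and the isomaltase gene IMA2 (-1.19). MPH2, MPH3 and IMA2 lost their calls whichever number was left out. MPH2 and MPH3 are 99.9% identical, so reads may have been split between them. All of the 12 but SUC2 are in the outer 30 kb of a chromosome arm, 11 genes with MPH2, MPH3 and IMA2 among them, and 14.1% of all tested features in that zone were called lower. The part of sugar use and of position in this list cannot be told apart. In MAL31, a maltose permease gene that was not called, the log2 fold change was -0.47 ± 0.12. Of 17 tested hexose transporters and glucose sensors, 5 were lower and 16 lay below 0, with a median of -0.77. The 5 were HXT15 (log2 -2.07), HXT11 (-0.95), HXT13 (-0.89) and HXT17 (-0.83), all within 30 kb of a chromosome end and with near copies, and the galactose permease gene GAL2 (-0.86). GAL2 was at 6.53, 6.83 and 5.89 CPM in WT and at 3.57, 4.04 and 3.01 in 2SA. The groups lay apart. HXT11, HXT13, HXT17 and GAL2 lost their calls whichever number was left out. The abundant transporter genes HXT2, HXT6 and HXT7 had log2 fold changes of -0.56 ± 0.16, -0.93 ± 0.21 and -0.77 ± 0.25 and did not pass (edgeR adjusted p = 0.102, 0.0568 and 0.128). HXT6 and HXT7 are near copies of each other. With the libraries numbered 2 left out, none of the 12 and 1 of the 17 was called, with medians of -0.45 and -0.54.

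In glycolysis, 5 of 24 genes were lower, none was higher and 22 lay below 0, with a median of -0.36. TDH1 (YJL052W, chromosome X, 338271 to 339269), the minor isoform of glyceraldehyde-3-phosphate dehydrogenase, was at 691, 445 and 187 CPM in WT libraries 1, 2 and 3 and at 259, 183 and 95.3 in 2SA. It fell in every pair, with a log2 fold change of -1.23 ± 0.10 (edgeR adjusted p = 0.000477), and it kept its call without the libraries of any number. WT library 3 was below 2SA library 1, so the groups overlapped. TDH1 has near copies in TDH2, at 90.2% identity, and TDH3. TDH2 and TDH3, the main isoforms, had log2 fold changes of -0.29 ± 0.17 and -0.40 ± 0.18 and did not pass. At 2 further steps GPM2 (phosphoglycerate mutase family, log2 -1.14 ± 0.17) and PYK2 (the minor pyruvate kinase, -0.93 ± 0.16) were called lower, and GPM1 and CDC19, the main enzymes, had -0.37 ± 0.21 and -0.44 ± 0.15 without a call. The differences between isoforms were not tested. ENO1, one of the enolase genes, was lower as well (log2 -0.63 ± 0.14, edgeR adjusted p = 0.0490) and has a near copy in ENO2. Pair 3 differed from the others over this list: the medians of the pair log2 ratios were -0.58, -0.61 and 0.07. TDH1 alone was called once the libraries numbered 2 were left out, with a median of -0.20. The promoter of TDH1 is shown because it holds the core of the stress response element, AGGGG, bound by Msn2 and Msn4 (in capitals), 229 bases before the start codon. The letters AGGGG occur on either strand in 21.3% of 6674 such windows of the genome. Sequences here and below run from 250 bases before the start codon to 50 bases from it, in the gene's direction, from the RefSeq R64 genome. TDH1 lies at chrX:338021-338320 on the plus strand.
TDH1: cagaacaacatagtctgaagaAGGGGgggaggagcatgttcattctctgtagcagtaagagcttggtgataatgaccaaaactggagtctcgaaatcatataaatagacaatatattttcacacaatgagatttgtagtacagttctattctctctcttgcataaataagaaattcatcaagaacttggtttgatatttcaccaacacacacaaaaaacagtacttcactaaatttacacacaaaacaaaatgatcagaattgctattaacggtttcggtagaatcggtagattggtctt

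**Figure D2:**
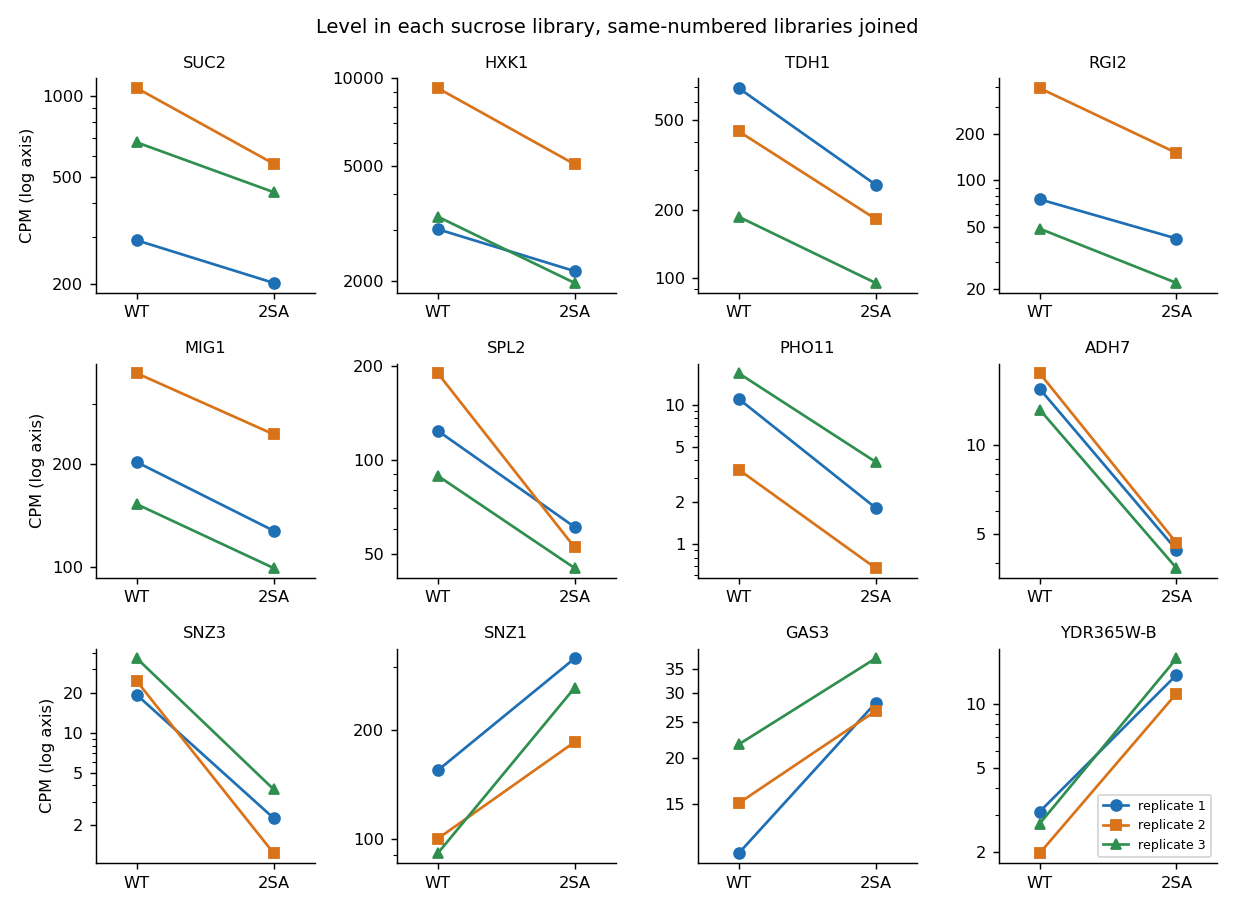
CPM (log axes, each with its own range) of 12 genes in the 6 sucrose libraries, with a line from each WT library to the 2SA library that shares its number. Every line falls for SUC2, HXK1, TDH1, RGI2, MIG1, SPL2, PHO11, ADH7 and SNZ3 and rises for SNZ1, GAS3 and YDR365W-B, while for SUC2, HXK1, TDH1, RGI2, MIG1 and PHO11 the numbers lie so far apart that the genotypes overlap.

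Among regulators of the glucose response, MIG1 and CAT8 were lower, 2 of 28 tested genes with a median of -0.11. MIG1, the glucose repressor gene, was at 203, 369 and 153 CPM in WT and at 128, 245 and 99.5 in 2SA. The 2SA level was lower in every pair by nearly the same ratio (log2 -0.63 ± 0.07, edgeR adjusted p = 0.00441), and the call held without the libraries of any number. CAT8, the activator gene of gluconeogenesis, fell by 0.61 ± 0.09 on the log2 scale (edgeR adjusted p = 0.0147). ADR1, another activator gene of the use of non-fermented carbon, had -0.50 ± 0.12 and did not pass (edgeR adjusted p = 0.0630). None of 19 gluconeogenesis and glyoxylate genes and none of 18 genes of the tricarboxylic acid cycle was called, with medians of 0.12 and -0.11. In the respiratory chain, 1 of 37 genes was called, CYC7, the minor cytochrome c isoform (log2 -0.65 ± 0.11, edgeR adjusted p = 0.0236). CYC1, the main isoform and a near copy, had 0.15 ± 0.15.

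Some stress genes and 1 reserve gene were called lower. Of 33 genes driven by Msn2 and Msn4, 6 were called lower, none was called higher and 30 lay below 0, with a median of -0.37. TMA10, a ribosome-associated protein gene induced by stress, was at 174, 820 and 124 CPM in WT and at 88.5, 268 and 75.2 in 2SA. It fell in every pair (log2 -1.11 ± 0.17, edgeR adjusted p = 0.0141) and kept its call without the libraries of any number, while the groups overlapped. HSP26, a small heat shock protein gene, fell by 0.81 ± 0.17, PAI3, a proteinase inhibitor gene, by 0.76 ± 0.15, and STF2 and SOL4 by 0.64 ± 0.12 and 0.61 ± 0.12 on the log2 scale. MSN4, the stress activator gene, fell by 0.67 ± 0.13, and its paralog MSN2 had 0.16 ± 0.13. HSP26 and MSN4 lost their calls whichever number was left out. HSP12 and CTT1, widely used stress reporters, had -0.31 ± 0.58 and 0.02 ± 0.14. GPH1, glycogen phosphorylase, was the 1 called of 20 trehalose and glycogen genes (median -0.34). It was at 387, 2042 and 265 CPM in WT and at 221, 1016 and 111 in 2SA (log2 -1.02 ± 0.17, edgeR adjusted p = 0.0181), and it overlaps other features. Of the genes outside the lists, RGI2, which is needed for respiratory growth, was at 75.6, 394 and 48.8 CPM in WT and at 42.2, 151 and 21.8 in 2SA (log2 -1.13 ± 0.11, edgeR adjusted p = 0.00206). Without the libraries numbered 2 the stress list had 2 lower calls and a median of -0.42, and the reserve list had none. None of 22 heat shock chaperone genes was called, and their median of -0.23 was set by pair 2: the pair medians were -0.17, -0.82 and 0.26, and without the libraries numbered 2 the median was 0.06. AGGGG occurred in the promoters of 66.7% of the stress list and of 3 of its 6 called genes.

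By number, the phosphate regulon had the most calls of the lists. Phosphate starvation drives these genes through the activator Pho4, which binds CACGTG, and the inhibitor Pho81. Of 27 members tested, 8 were called lower, none was called higher and 25 lay below 0, with a median of -0.36. The share called lower was 29.6%, beside 29.4% of hexose transporters and sensors, 30% of COS genes and 30% of vitamin B6 genes. It was 33.3% of sucrose and alpha-glucoside genes. PHO11 (YAR071W, chromosome I, 225460 to 226863), a secreted acid phosphatase gene, was at 10.98, 3.42 and 16.8 CPM in WT and at 1.82, 0.674 and 3.89 in 2SA. The mutant was lower in each pair, with a log2 fold change of -2.33 ± 0.16 (edgeR adjusted p = 0.000279), and WT library 2 was below 2SA library 3. PHO12, which is 99.7% identical to PHO11, fell by 1.25 ± 0.15, while the less close copy PHO5 had -1.14 ± 0.35 and did not pass. PHO89, the sodium-coupled phosphate transporter gene, was at 565, 578 and 630 CPM in WT and at 319, 192 and 286 in 2SA (log2 -1.18 ± 0.15, edgeR adjusted p = 0.00543). The groups lay apart. PHO84, the proton-coupled transporter gene, fell by 0.79 ± 0.12, the glycerophosphoinositol permease gene GIT1 by 1.58 ± 0.19, PHM6 by 1.59 ± 0.27 and PHO81 by 0.66 ± 0.07 on the log2 scale. PHO4 itself had -0.13 ± 0.10. With the libraries numbered 2 left out, 7 members were called and the median was -0.36, and in glucose 4 were called with a median of -0.20. PHO11, PHO12, PHO89, PHO84 and GIT1 lie within 30 kb of a chromosome end, and SPL2, PHM6 and PHO81 do not. These 5 are all the tested members in that zone, where 14.1% of all tested features were called lower. The part of position in the calls of this list was not tested.

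SPL2 (YHR136C, chromosome VIII, 374654 to 375100), which encodes a regulator of low-affinity phosphate transporters, was at 124, 190 and 89.0 CPM in WT and at 61.1, 52.6 and 45.1 in 2SA. All 2SA libraries were below all WT libraries, with a log2 fold change of -1.29 ± 0.16 (edgeR adjusted p = 0.00543) that kept its call without the libraries of any number. Its promoter is shown because it was the 1 of the 8 called phosphate genes with CACGTG in the window, 3 times, at 147, 90 and 31 bases before the start codon. Those letters are in 2.94% of all windows and in 7 of the 27 of the phosphate list. No match says only that the letters are not in this window. The SPL2 window is chrVIII:375051-375350 on the minus strand, with CACGTG in capitals.
SPL2: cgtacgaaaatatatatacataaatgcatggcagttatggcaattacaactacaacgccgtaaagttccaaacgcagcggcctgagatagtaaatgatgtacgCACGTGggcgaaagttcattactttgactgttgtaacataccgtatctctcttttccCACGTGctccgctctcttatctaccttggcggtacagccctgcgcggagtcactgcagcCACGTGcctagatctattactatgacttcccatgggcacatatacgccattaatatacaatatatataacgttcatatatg

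Distance to a chromosome end set apart a large share of the lower features. Of 347 tested features within 30 kb of an end, 49 were called lower (14.1%) and none higher. Of 5735 farther away, 49 were lower (0.854%) and 14 higher. The median log2 fold change was -0.70 over the 38 features in the outer 5 kb, -0.61 over 49 features from 5 to 10 kb, -0.17 over 119 from 10 to 20 kb, -0.10 over 141 from 20 to 30 kb and -0.02 over 314 from 30 to 50 kb. The lower level thus faded with distance, and the same order up to 30 kb, apart from its outer 2 intervals, was seen in glucose, at -0.44, -0.53, -0.16 and -0.04. Of the 32 chromosome arms, 22 had a lower call within 30 kb of the end and 28 a median below 0. The left end of chromosome XV had most, 6 of 11 features, among them IMA2, HXT11 and the cell wall gene HPF1. HPF1 was at 2713, 1571 and 1132 CPM in WT and at 1529, 978 and 379 in 2SA (log2 -1.03 ± 0.16, edgeR adjusted p = 0.0156). It was the most abundant lower call near an end after HXK1. At the left end of chromosome VI, 5 of 12 were lower (DDI3, SNZ3, THI5, AGP3 and ZNF1). The frames YOL163W, YIR042C and YDR541C, with no near copy, were lower near other ends (log2 -2.81 ± 0.58, -1.95 ± 0.34 and -1.80 ± 0.22). YDR541C kept its call without the libraries of any number, and YOL163W and YIR042C lost theirs in every case.

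**Figure D3:**
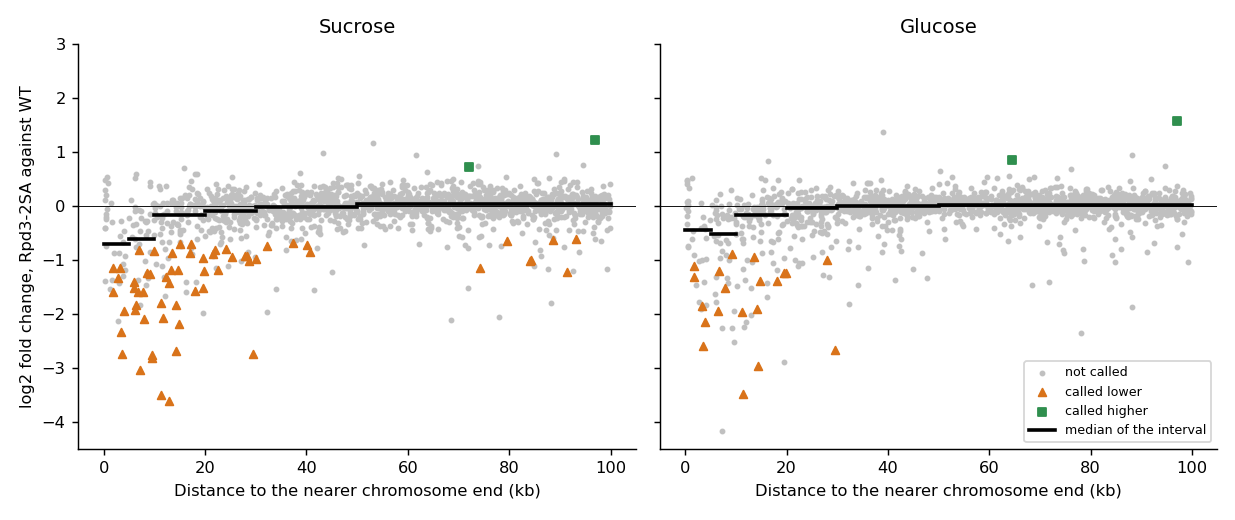
Log2 fold change of Rpd3-2SA against WT (vertical axis) in sucrose (left) and glucose (right) by distance to the nearer chromosome end in kb, for features up to 100 kb from an end, with horizontal bars for the median of each interval. The bars lie at -0.70 and -0.61 in the outer 10 kb in sucrose and near 0 beyond 30 kb.

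Low levels and near copies go with these positions. Of features with a mean under 50 CPM, 44 of 245 near an end were lower (17.96%) and 25 of 2168 farther away (1.15%), and at 50 CPM or more 5 of 102 (4.90%) and 24 of 3567 (0.673%). Among features with no near copy, 22 of 229 near an end were lower (9.61%) and 44 of 5426 farther away (0.811%). By share of lower calls, the excess near ends was seen at both levels and without near copies. The shift of all features near ends was mostly at low levels. Their median log2 fold change was -0.307 under 50 CPM and -0.035 at 50 CPM or more, beside 0.014 and 0.0076 farther away. The part of level in the position pattern was not tested. Over the 49 lower features near ends the median WT level was 10.7 CPM, and 27 had a near copy. Near copies were found for 118 of the 347 tested features in that zone and for 7.02% of all tested features. Without the libraries numbered 2, 22 of them were still called. IRC4 (YDR540C, chromosome IV, 1517136 to 1517675), which has no near copy and lies 14.3 kb from the end, was at 30.5, 30.6 and 16.9 CPM in WT and at 8.67, 8.46 and 4.67 in 2SA. The ratio was almost the same in every pair (log2 -1.84 ± 0.11, edgeR adjusted p = 0.000247), and the groups lay apart. ADH7 (YCR105W, chromosome III, 309070 to 310155), an alcohol dehydrogenase gene 6.5 kb from the end, was at 15.6, 17.6 and 13.2 CPM in WT and at 4.43, 4.68 and 3.84 in 2SA (log2 -1.84 ± 0.14, edgeR adjusted p = 0.000428). It was 1 of the 4 features called without the block as well (edgeR adjusted p = 0.00986 there).

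Of the COS genes, a family beside telomeres with roles in protein sorting, 3 of 10 were lower and 9 lay below 0, with a median of -1.14. COS7, 1.8 kb from the end of chromosome IV, was at 35.0, 28.8 and 14.9 CPM in WT and at 11.2, 10.03 and 4.72 in 2SA (log2 -1.60 ± 0.11, edgeR adjusted p = 0.000279). The groups lay apart, although COS7 and COS5 (log2 -1.14) are near copies at 95.6% identity. COS10, with no near copy, had -1.14 ± 0.17. The glutathione exchanger gene GEX2 (log2 -2.74 ± 0.23) and IMD2 of guanine nucleotide synthesis (-1.60 ± 0.18) were lower too, with the groups apart, and both have near copies. DAL4, the allantoin permease gene, 29.5 kb from the end of chromosome IX, was at 18.9, 4.10 and 5.71 CPM in WT and at 1.67, 0.935 and 1.12 in 2SA (log2 -2.75 ± 0.39, edgeR adjusted p = 0.0101). All of WT lay above all of 2SA. At 2 ends a mannitol dehydrogenase gene and the transporter gene beside it were both lower, DSF1 (log2 -1.53) with HXT13 on chromosome V and MAN2 (-2.10) with HXT17 on chromosome XIV. DSF1 and MAN2 are 98.9% identical, as are HXT13 and HXT17 at 97.2%. None of 14 tested PAU, DAN and TIR genes, a family also found near ends, was called (median -0.17).

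The called genes of vitamin B6 synthesis moved in opposite directions by copy. SNZ1 and SNO1 encode the subunits of the enzyme that makes pyridoxal phosphate and lie side by side inside chromosome XIII. SNZ2, SNO2, SNZ3 and SNO3 are copies near the ends of chromosomes XIV and VI. SNZ1 (YMR096W, chromosome XIII, 458408 to 459301) was at 155, 100 and 91.1 CPM in WT and at 317, 186 and 263 in 2SA. The groups lay apart, with a log2 fold change of 1.15 ± 0.13 (edgeR adjusted p = 0.00428). SNO1 rose with it, by 1.11 ± 0.13. SNZ3 (YFL059W, chromosome VI, 11363 to 12259) was at 19.3, 24.4 and 36.3 CPM in WT and at 2.27, 1.23 and 3.74 in 2SA. It had the largest fall of the features called at 5 CPM or more, -3.51 ± 0.30 (edgeR adjusted p = 0.000716), again with the groups apart. SNZ2 and SNO2 fell by 1.19 ± 0.22 and 1.31 ± 0.18, and SNO3 had 0.03 ± 1.04. Of the 10 genes on the list, 2 were thus higher and 3 lower (median 0.05). SNZ2 and SNZ3 are 99.3% identical and SNO2 and SNO3 99.7%, so the split of reads between them is uncertain. SNZ1 is not a near copy of these by the 80% limit used here. In glucose SNZ3 had -3.49 ± 0.30 and SNZ1 0.72 ± 0.13. The thiamine genes beside these copies, THI5 and THI12, were lower at under 2 CPM, and THI72, a transporter gene inside chromosome XV, rose by 1.002 ± 0.16 and has a near copy in THI7, 3 calls among 19 thiamine genes.

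The promoters of SNZ1, SNZ2 and SNZ3 are shown because all 3 hold the core of URS1, the site of Ume6, although SNZ1 was higher and SNZ2 and SNZ3 lower. The core searched was GGCGGC on either strand, which reads GCCGCC in these windows (in capitals), 194 bases before the start codon in SNZ1 and 223 in SNZ2 and SNZ3. MPC54, a sporulation gene that was lower, holds it 187 bases before the start codon. A match is a description of letters and not a measured binding site. The windows are chrXIII:458158-458457 (plus strand) for SNZ1, chrXIV:13017-13316 (plus) for SNZ2, chrVI:11113-11412 (plus) for SNZ3 and chrXV:667130-667429 (minus) for MPC54.
SNZ1: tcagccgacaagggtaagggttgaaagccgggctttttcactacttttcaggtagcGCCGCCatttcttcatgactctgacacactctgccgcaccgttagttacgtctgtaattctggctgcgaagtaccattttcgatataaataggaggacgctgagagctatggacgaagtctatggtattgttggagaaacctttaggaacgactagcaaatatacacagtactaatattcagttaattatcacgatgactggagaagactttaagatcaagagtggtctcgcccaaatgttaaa
SNZ2: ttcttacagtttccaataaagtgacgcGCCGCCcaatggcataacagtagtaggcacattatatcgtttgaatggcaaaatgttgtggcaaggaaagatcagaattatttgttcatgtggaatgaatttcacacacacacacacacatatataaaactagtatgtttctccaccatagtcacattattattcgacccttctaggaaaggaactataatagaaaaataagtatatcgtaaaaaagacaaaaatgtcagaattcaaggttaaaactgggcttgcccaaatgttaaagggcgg
SNZ3: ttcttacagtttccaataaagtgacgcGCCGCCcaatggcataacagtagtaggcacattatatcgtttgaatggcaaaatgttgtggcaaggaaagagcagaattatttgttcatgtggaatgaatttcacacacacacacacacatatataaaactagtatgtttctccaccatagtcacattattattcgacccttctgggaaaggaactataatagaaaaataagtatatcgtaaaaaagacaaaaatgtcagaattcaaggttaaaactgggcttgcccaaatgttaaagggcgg
MPC54: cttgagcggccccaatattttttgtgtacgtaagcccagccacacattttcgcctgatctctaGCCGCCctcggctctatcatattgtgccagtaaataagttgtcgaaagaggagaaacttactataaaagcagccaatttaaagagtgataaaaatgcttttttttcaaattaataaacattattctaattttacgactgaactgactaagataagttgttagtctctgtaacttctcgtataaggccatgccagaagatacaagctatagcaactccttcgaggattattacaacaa

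The core GGCGGC was in 5.18% of all windows, in 10 of 97 windows of the lower features (10.3%) and in 1 of 12 of the higher ones. Of the lower features, 7 of 49 near an end and 3 of 48 farther away held it, and several of the former are near copies. Cores of the Mig1 site were searched on either strand as CTGGGG, found in 4.08% of all windows, GTGGGG, in 4.36%, CCGGGG, in 1.77%, and GCGGGG, in 2.64%. At least 1 of them was in 12.2% of all windows, in 17.5% of those of the lower features and in none of the 12 of the higher ones. The windows of SUC2 and HXK1 held none of these letters, which says nothing of sites farther away.

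Genes known as targets of Ume6 and Rpd3 did not move together. Of 25 genes repressed by them, none was called in sucrose and 8 lay below 0, with a median of 0.06. In glucose 2 of the 25 were called higher and none lower, with a median of 0.04. Over all tested features, 0.115% were called higher in glucose. INO1, the inositol synthesis gene, was at 18.3, 18.9 and 28.3 CPM in WT and at 90.2, 29.3 and 28.4 in 2SA. The lowest 2SA library was level with the highest WT library and 2SA library 1 stood far above the rest. The log2 fold change of 0.97 ± 0.35 did not pass (edgeR adjusted p = 0.157). IME2, the meiotic kinase gene, had 0.12 ± 0.12. Of 32 middle and late sporulation genes, 2 were lower and 27 lay below 0, with a median of -0.60. MPC54, a gene of the meiotic spindle pole body, was at 23.7, 8.93 and 11.1 CPM in WT and at 4.91, 2.88 and 3.94 in 2SA (log2 -1.82 ± 0.23, edgeR adjusted p = 0.00543). The groups lay apart. DTR1, a spore wall transporter gene, fell by 2.00 ± 0.33 on the log2 scale, from under 4 CPM, and lost its call whichever number was left out. All 19 Rpd3L and Rpd3S subunit genes were without a call and had a median of -0.0056, and SIN3 and UME6 had log2 fold changes of -0.01 ± 0.07 and 0.09 ± 0.11.

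Of the 7 a-specific genes all lay below 0, with a median of -0.55, and 1 was called. BAR1, the protease gene that degrades alpha factor, was at 60.1, 23.6 and 56.8 CPM in WT and at 23.0, 19.7 and 29.0 in 2SA (log2 -0.88 ± 0.19, edgeR adjusted p = 0.0482). WT library 2 lay within the range of 2SA. The BAR1 call held without the libraries numbered 2. It was lost without those numbered 1 or 3 (edgeR adjusted p = 0.153 and 0.139). Left without the libraries numbered 2, the list had 3 calls and a median of -0.75, and the pair medians were -1.07, -0.16 and -0.80. The receptor gene STE2 had -0.50 ± 0.17 and did not pass. None of 28 haploid-specific and pheromone genes was called (median -0.07). TEC1, the activator gene of filamentous growth, was the 1 lower call of 11 genes of that list (log2 -0.85 ± 0.13, edgeR adjusted p = 0.0156).

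Of the 14 higher features, 3 were frames of Ty retrotransposons and 2 were spacers of ribosomal RNA, all 5 with near copies. Near copies were found for 6 of the 14 and for 7.02% of all tested features. Ty frames were not 1 of the gene lists, so nothing is said here of Ty frames as a class. YDR365W-B (chromosome IV, 1206997 to 1212265) was at 3.10, 1.97 and 2.72 CPM in WT and at 13.7, 11.2 and 16.4 in 2SA. It was higher in all 2SA libraries, with a log2 fold change of 2.41 ± 0.17 (edgeR adjusted p = 0.000279), and in glucose of 2.80 ± 0.17. YER138C (chromosome V, 443756 to 449024) was at 4.79, 0.925 and 3.31 CPM in WT and at 21.6, 7.93 and 45.9 in 2SA (log2 2.99 ± 0.34, edgeR adjusted p = 0.00428). In glucose it was at 1.77, 4.77 and 4.996 CPM in WT and at 2.09, 2.39 and 2.09 in 2SA (log2 -0.74 ± 0.36, edgeR adjusted p = 0.514), so all values above 5 CPM were in the sucrose libraries of 2SA. YNL284C-B was higher by 1.22 ± 0.25 in sucrose. The closest other Ty frames are 97.4% to 99.9% identical to these, and the value of a single frame is uncertain. The spacers ETS1-1 and ETS1-2, which are identical, were under 2 CPM in every sucrose library.

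The remaining higher genes had smaller changes. GAS3, a cell wall glucanosyltransferase family gene, was at 10.98, 15.0 and 21.8 CPM in WT and at 28.2, 26.8 and 37.3 in 2SA (log2 0.98 ± 0.13, edgeR adjusted p = 0.00632). The groups lay apart, and the call held without the libraries of any number. The urea genes DUR12 (urea amidolyase, log2 0.84 ± 0.14) and DUR3 (urea permease, 0.72 ± 0.15) were higher, while DAL4 and UGA4 of the same nitrogen list of 23 genes were lower. UGA4 lost its call whichever number was left out. DUR12 was at 73.4, 64.7 and 55.7 CPM in WT and at 136, 115 and 97.3 in 2SA, apart from each other. FKH1, a forkhead cell cycle activator gene, rose by 0.74 ± 0.15, the 1 call among 26 cyclin and cell cycle genes. POL4, a repair DNA polymerase gene, rose by 0.64 ± 0.12 and PLB3, a phospholipase B gene, by 0.74 ± 0.14 on the log2 scale. DUR12, DUR3 and POL4 lost their calls whichever number was left out (edgeR adjusted p 0.0768 to 0.0978, 0.0646 to 0.200 and 0.0580 to 0.123), and FKH1 and PLB3 kept theirs in 1 of the 3 cases each.

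Ribosomal genes lay above 0 together without any single call. Of 138 cytosolic ribosomal protein genes, 5 lay below 0 and none was called, with a median of 0.29, and of 90 nucleolar ribosome biogenesis genes none lay below 0 and none was called, with a median of 0.26. The pair medians were 0.07, 0.56 and 0.28 for ribosomal proteins and 0.26, 0.46 and 0.11 for biogenesis genes. Pair 2, the pair that stood apart, had the largest value in both, and without it the medians were 0.19 and 0.16. In glucose the medians were -0.05 and 0.02.

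**Figure D4:**
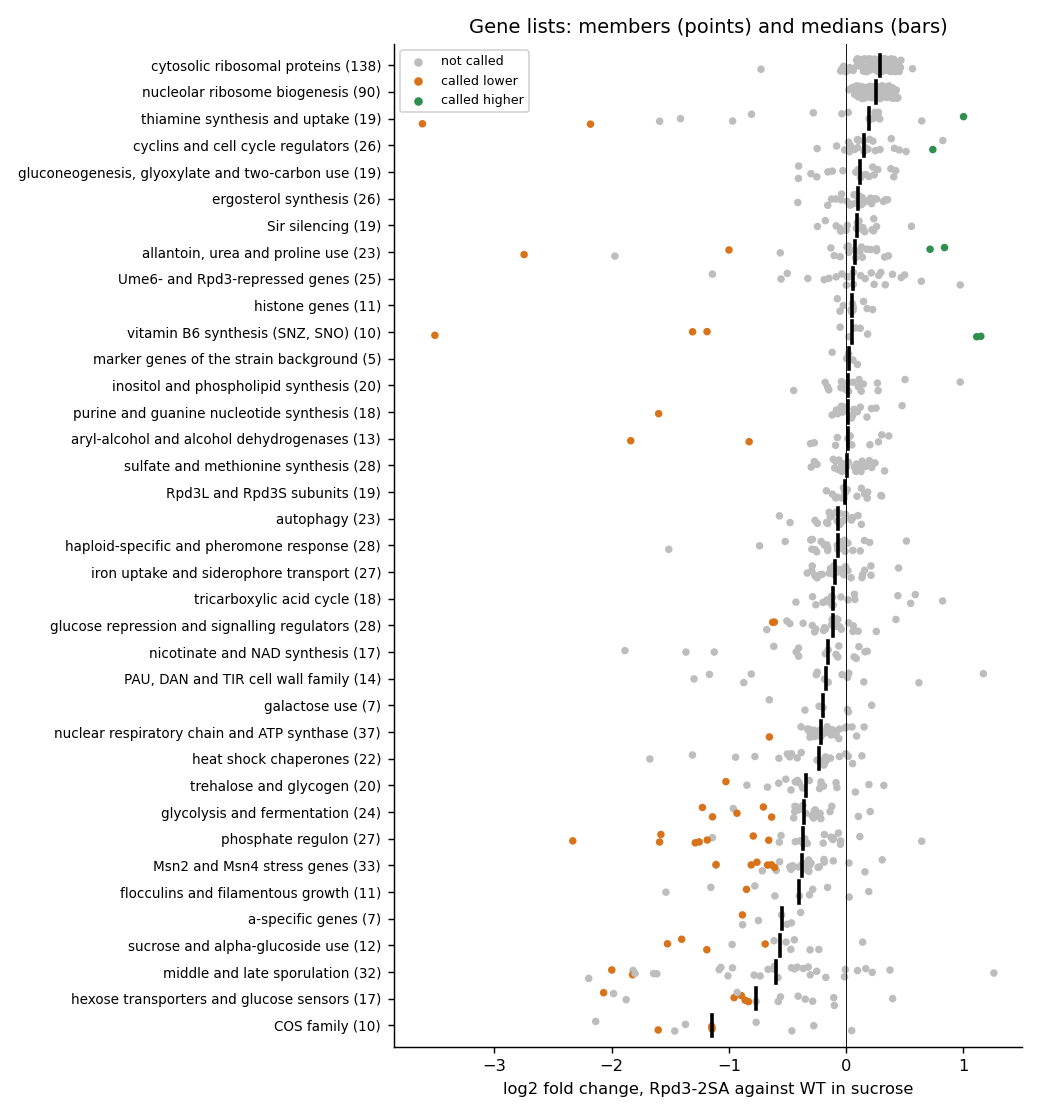
Log2 fold change of Rpd3-2SA against WT in sucrose (horizontal axis) for the tested members of each gene list (points, jittered vertically) with the list median (bars), and the number of tested members in parentheses. The COS family, hexose transporters and sporulation genes have the lowest medians, at -1.14, -0.77 and -0.60, and ribosomal proteins the highest, at 0.29.

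In glucose 29 features were called with the same fit, 22 lower (0.362%) and 7 higher (0.115%), 0.477% together. Without the block 3 were lower (0.0493%) and 2 higher (0.0329%), 0.0822% together. Of the sucrose calls, 94 of the 98 lower and 13 of the 14 higher had the same sign in glucose, and 26 were called there in the same direction. These 26 are 23.2% of the sucrose calls and 89.7% of the glucose calls. The sets near and far from chromosome ends differed in their glucose values. Over the 49 lower features near ends the median log2 fold change was -1.40 in sucrose and -1.24 in glucose, 43 were past 1.5-fold lower in glucose and 20 were called there. Over the 49 farther away it was -0.83 in sucrose and -0.31 in glucose, 12 were past 1.5-fold and 2 were called. Since the features were chosen on their sucrose values, a smaller value in glucose is favoured by the choice.

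The difference between the sucrose and the glucose effect passed for no feature with edgeR (0%, lowest adjusted p = 0.212), where 302 features had an unadjusted p under 0.05. DESeq2 with the same block called 10 features for the difference (0.164%), 9 lower (0.148%) and 1 higher (0.0164%) in sucrose. The 9 were SUC2, HXK1, GLK1, TDH1, HXT6, ADR1, TMA10, RGI2 and EGO4, and the 1 was YER138C. The edgeR difference was -0.89 for SUC2 (unadjusted p = 0.00043), -0.80 for HXK1 and -0.76 for TDH1 on the log2 scale. Of the lower features, an unadjusted p under 0.05 for the difference was found in 27 of the 49 far from ends and 4 of the 49 near them, against 4.96% of all tested features, with the choice on sucrose values again part of these counts. No feature is therefore called particular to sucrose by the edgeR test.

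**Figure D5:**
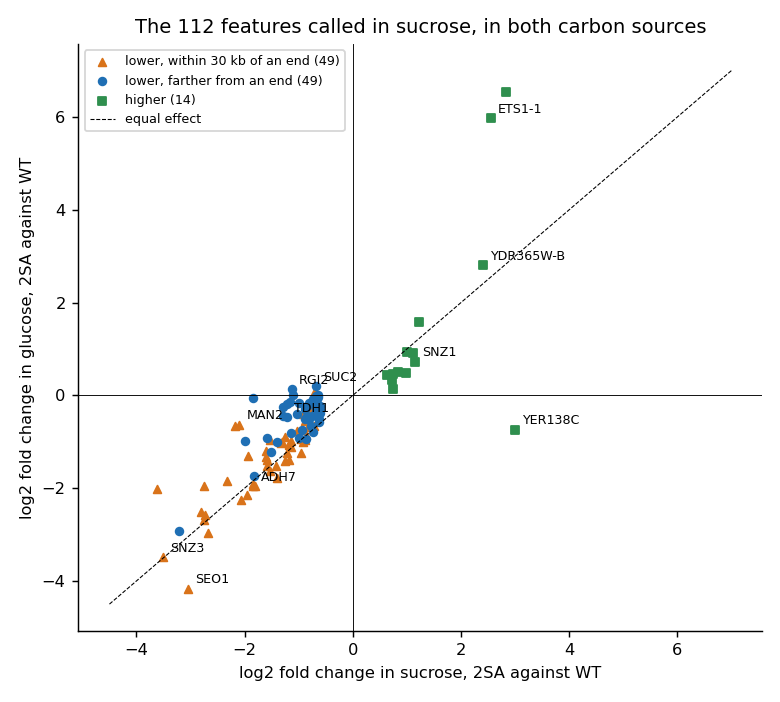
Log2 fold change of Rpd3-2SA against WT in sucrose (horizontal axis) and glucose (vertical axis) for the features called in sucrose, with a dashed line where both are equal. Lower features near chromosome ends (triangles) follow the line, with medians of -1.40 and -1.24, and those farther away (circles) lie above it, with medians of -0.83 and -0.31.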

How the data were processed

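The authors deposited raw read counts per feature for the 12 libraries, with 7127 features and no normalization. Reads were aligned with Bowtie 0.12.2 to sacCer3, per the submitters' processing notes. Not given in the sources used here: the counting program, its strand setting and its handling of reads with several matches, so overlapping features and near copies are uncertain. Groups and replicate numbers come from the sample titles.

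Counts were tested with the quasi-likelihood test of edgeR 4.0.16 in R 4.3.3 over all 12 libraries, with trimmed mean of M values scaling (factors 0.990 to 1.11 in sucrose), the default filter at a minimum count of 10, a block for each same-numbered WT and 2SA pair within its sugar and 4 residual degrees of freedom. The filter left 1042 features untested. Values are log2 fold changes ± standard error and scaled CPM per library (n = 3 per group), and pair ratios come from log2 CPM with a prior count of 2. The standard error was computed as the size of the log2 fold change over the square root of the test's F value. Deviations from the group means correlated over features with r = 0.603, 0.847 and 0.799 between sucrose libraries of the same number and with -0.72 to 0.05 between others. The pairing is a feature of the data that no label explains, while the design text calls the replicates biological. No replicates agreed within sampling noise (the smallest chi-square was 171 per degree of freedom). A sum of 0 counts over the 6 sucrose libraries allows up to 0.0217 CPM (3 counts, counting error only).

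Near copies were found with BLAST+ 2.17.0 (at least 80% identity over 100 bp). Coordinates are those of the deposited table in sacCer3, and the RefSeq R64 annotation has the same start for 99.9% of 6047 matched features. The members and the 38 gene lists were chosen with earlier results of these data known, and lists are described by counts and medians with no test. Genes were named by a rule: the 12 largest increases and the 12 largest decreases among calls at 5 CPM or more, up to 5 called members per list, all calls without the block, and 10 fixed genes. PHO89, PHO84, PHO81, SOL4, HPF1, RGI2, DSF1, EGO4, the spacers ETS1-1 and ETS1-2, other features named by chromosome end, all uncalled genes outside the 10 and the genes of the closing section were chosen after their values were seen. Scripts were tested on simulated data. Alternatives were no block, other blocks, DESeq2 1.42.0, other scaling and filters, libraries left out, and near copies left out.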

Additional observations from a re-analysis of the deposited data

How the results depend on the processing

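Without a replicate block, 1 feature was higher and 3 lower (242 at an unadjusted p under 0.05), and with a block shared by both sugars 1 and 9. The 6 sucrose libraries alone gave 9 higher and 66 lower with the block (68 shared) and 0 and 0 with no replicate block. DESeq2 gave 25 and 143 (107 shared) and 10 calls for the difference between sugars, the adjusted p alone 35 and 129, and leaving out near copies, an alternative chosen after seeing the data, 8 and 66. RLE scaling gave 14 and 100, no count filter 13 and 97, and a minimum count of 50 gave 11 and 88. Without the libraries of 1 number, 6 to 13 were higher and 41 to 51 lower, with 0 to 1 calls for the difference. Those fits have fewer libraries.

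The share of lower calls within 30 kb of a chromosome end, 50% here, was 100% of 3 calls without a block, 88.9% of 9 with the shared block and 33.3% of 66 with near copies left out, and 39.9% to 53.7% in the other fits that gave calls. Of the 38 list medians, that of vitamin B6 synthesis, small beside the range of its genes, moved most often: 0.0529 became 0.0196 with no block, 0.106 with the shared block, 0.0325 and 0.0106 for the 6 libraries with and without the block, 0.0681 with no filter, 0.0739 at a minimum count of 50, 0.0969 with DESeq2 and -0.00874 to 0.0415 with libraries left out. With no filter the alpha-specific median became -0.695 and the PAU, DAN and TIR median -0.381. With libraries left out, medians that moved ranged from -0.0818 to 0.0135 for tricarboxylic acid cycle, 0.0943 to 0.182 for thiamine synthesis and uptake, 0.0661 to 0.202 for Ume6- and Rpd3-repressed genes, 0.11 to 0.243 for alpha-specific genes, -0.227 to 0.0148 for haploid-specific and pheromone response, -0.00457 to 0.0487 for Rpd3L and Rpd3S subunits, 0.0999 to 0.122 for Sir silencing, -0.0858 to -0.0313 for iron uptake and siderophore transport and -0.024 to 0.0949 for sulfate and methionine synthesis. No value changed sign while called. The 71 named genes include RPD3, SIN3, UME6, INO1, IME2, URA3 and HIS3, which had no call to lose. Of the others, 60 lost their call without the block, and only the 4 called without it kept theirs. With the shared block 54 lost it. In the 6 libraries 63 lost it without the block, where no feature was called, and 22 with it. Without the libraries of 1 number 33 to 35 lost it, and 0 to 1 under the other scaling, filters and DESeq2. The cause of these losses was not tested beyond the wider spread without the block and the smaller number of libraries. Counting depth limits the features under 2 CPM in every sucrose library, among them THI5, THI12 and the spacers.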

Other observations

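Other lower genes belong to no list above. RNR3, a subunit gene of ribonucleotide reductase known for induction by DNA damage, was at 14.4, 16.4 and 11.3 CPM in WT and at 7.62, 10.7 and 5.98 in 2SA in sucrose, with the groups apart (log2 -0.81 ± 0.14, edgeR adjusted p = 0.0206). TSA2, a peroxiredoxin gene, fell by 0.68 ± 0.10 and QDR1, a multidrug transporter gene, by 0.63 ± 0.09 on the log2 scale. QDR1 was at 38.5, 35.9 and 30.04 CPM in WT and at 24.1, 23.2 and 20.1 in 2SA, and in glucose it fell by 0.57 ± 0.09 without reaching 1.5-fold. ANB1, the isoform of translation factor eIF5A used without oxygen, fell by 0.62 ± 0.14 and has a near copy. RNR3, TSA2, QDR1 and ANB1 lost their calls whichever number was left out. FRE7, a metal reductase gene, fell by 0.86 ± 0.15, while none of 27 iron uptake genes was called (median -0.10).

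CSR2, an arrestin-like gene of transporter turnover, was at 65.7, 297 and 35.0 CPM in WT and at 40.5, 120 and 22.9 in 2SA (log2 -0.89 ± 0.13, edgeR adjusted p = 0.0134), and kept its call without the libraries of any number. KIN82, a flippase kinase gene, was at 59.2, 245 and 38.1 CPM in WT and at 44.7, 131 and 21.1 in 2SA (log2 -0.72 ± 0.12, edgeR adjusted p = 0.0164). In both genes the libraries numbered 2 were highest in each genotype, so the groups overlapped although every pair fell. The KIN82 call was lost without the libraries numbered 2 (edgeR adjusted p = 0.107). ATG41, an autophagy gene, fell by 1.16 ± 0.23 on the log2 scale, and none of the 23 other autophagy genes tested was called (median -0.06). The lists of nicotinate and NAD synthesis (17 genes), histones (11), silencing (19), sulfate and methionine (28), ergosterol (26), inositol and phospholipids (20) and galactose use (7) had no call. Of 18 purine genes IMD2 was called lower, and of 13 alcohol dehydrogenase genes ADH7 and ADH5 (log2 -0.83 ± 0.15).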
